A study of Mus musculus with 78 samples.

Results

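The MHC class II antigen presentation genes were taken as 7 mouse genes listed by symbol: H2-Aa, H2-Ab1 and H2-Eb1, which encode chains of the class II molecule itself, H2-DMa and H2-DMb1, the chains of the peptide editor H2-DM, Cd74, the invariant chain, and Ciita, the transcriptional coactivator of the whole set. The list sets no threshold on a measured value. A gene was represented by the probe set that carries its symbol alone, and each of the 6 measured genes had 1 such probe set, among 19938 genes on the array. H2-DMb1 shared its probe set with H2-DMb2 and was not analysed here. The H2 genes lie on chromosome 17, Ciita on chromosome 16 and Cd74 on chromosome 18.

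The levels came from 78 liver arrays in 18 groups, all from female mice of BALB/c background. In the age series of 48 arrays, Npc1-/- mice of the line BALB/cNctr-Npc1m1N/J were set against Npc1+/+ littermates, both bred from heterozygous parents, at 6 ages, the odd-numbered weeks between 1 and 11, with 4 mice per genotype and age. In the set of 30 arrays, BALB/cJ mice with an intact Npc1 gene were all 12 weeks old, with 5 mice per group. These groups had received an Npc1 antisense oligo or a control oligo for 4 weeks from week 8, each with or without the antioxidant N-acetyl-cysteine (NAC), or had been fasted, or were left untreated. Npc1-/- mice lack the protein throughout life, whereas the oligo lowers the mRNA in adult mice. The oligo effect on Npc1 was measured in whole liver, so its share in each cell type cannot be told. Values are log2 array signals as deposited, and each group is given as the mean ± SD.

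NPC1 moves cholesterol out of late endosomes and lysosomes, and without it cholesterol and sphingolipids are stored there, in the liver both in hepatocytes and in macrophages that become lipid-laden. MHC class II molecules present peptides made in the same endosomal compartments to CD4+ T cells. The alpha and beta chains assemble on the invariant chain, which guides them to endosomes, where cathepsin S and other proteases cut it down to a fragment that H2-DM then exchanges for peptide. B cells, dendritic cells and macrophages express the set, and interferon gamma can induce it in other cells through Ciita, which binds no DNA itself but docks on factors held at the promoters.

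Those docking sites are the X box, where the RFX complex (Rfx5, Rfxap and Rfxank) binds, and the Y box, where NF-Y (Nfya, Nfyb and Nfyc) binds. They are shown for H2-Aa and H2-Eb1, which were higher in Npc1-/- livers, because Ciita acts at class II promoters through elements of this kind. The sequences are those of RefSeq on build GRCm38.p6, the 150 bases before the annotated gene start, chr17:34287824-34287973 on the minus strand for H2-Aa and chr17:34305717-34305866 on the plus strand for H2-Eb1. Capitals mark GCAAC, a core of the X box, and GATTGG, the inverted CCAAT of the Y box.
H2-Aa: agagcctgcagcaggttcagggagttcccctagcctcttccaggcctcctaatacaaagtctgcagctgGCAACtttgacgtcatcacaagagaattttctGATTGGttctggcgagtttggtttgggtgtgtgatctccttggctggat
H2-Eb1: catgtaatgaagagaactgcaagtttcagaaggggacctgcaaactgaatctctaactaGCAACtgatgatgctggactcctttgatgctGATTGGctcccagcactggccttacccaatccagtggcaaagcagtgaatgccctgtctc

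In H2-Aa, 27 bases separated the pair of motifs, with GCAAC starting 81 bases and GATTGG starting 49 bases before the gene start. In H2-Eb1, 26 bases separated them, and the starts were 91 and 60 bases before the gene. Both motifs were searched on both strands of the 250 bases before each start in 32851 promoters. GCAAC stood in 29.9% of them and GATTGG in 14.6%. GCAAC followed by GATTGG on the same strand, with 20 to 35 bases between them, stood in 79 promoters of 72 genes, or 0.24%, a spacing window chosen after these sequences had been read. The 2 listed H2-DMa promoters and that of H2-DMb1 held no such pair. The search took exact matches alone, so boxes with other bases would be missed. H2-Ab1 and Ciita were not in the promoter table, and the Cd74 promoter was not examined.

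Hepatocyte markers (Alb, Apoa1 and Ttr) averaged between 13.1 and 13.7 on every array. Npc1 itself was lower in Npc1-/- livers at every age, with log2 differences of -1.72 to -1.11, and fell by 2.97 with the Npc1 oligo and by 2.08 with the Npc1 oligo plus NAC, in limma fits with adjusted p of at most 1.96e-06. Within the control oligo, NAC lowered Npc1 by 1.03 (adjusted p = 6.05e-05), so the 2 control oligo groups differed in Npc1. Arrays 1 and 2 of the Npc1+/+ livers at 3 weeks averaged 8.94 and 8.92 over pancreas markers, against 5.48 and 5.33 in the other two. Array 3 of the Npc1-/- livers at 1 week averaged 9.69 over skeletal muscle markers, against 5.68 to 5.88 in the others of its group. Without these 3 arrays together, a setting chosen after seeing the data, Cd74 differed by 0.63 between genotypes at 1 week (adjusted p = 0.0491). Of the calls on members in the age series, that of Cd74 at 3 weeks was the one lost. Other arrays with smaller rises in these markers were kept. The highest were at 6.99 over skeletal muscle markers (Npc1+/+ at 7 weeks) and 6.92 over pancreas markers (fasted).

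The question of the age series is when gene expression in the liver departs from normal as the disease progresses. H2-Aa, H2-Ab1, H2-Eb1 and Cd74 were above the median of all values (5.54) on all 48 arrays of the age series, and all 4 were higher in Npc1-/- livers at 5, 7, 9 and 11 weeks. The difference was widest at 9 weeks for H2-Aa (4.33-fold, 95% interval 3.44 to 5.46), H2-Ab1 (2.96-fold, 2.43 to 3.60) and H2-Eb1 (2.30-fold, 1.91 to 2.76), and at 7 weeks for Cd74. H2-DMa was above that median on 3 and Ciita on 0 of the 48 arrays, so neither passed the filter on low values and neither was tested there.

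Counted over the 4 members tested, 1 was higher in Npc1-/- livers at 1 week, 2 at 3 weeks and 4 at each later age. Over all 12638 genes tested, the share called higher was, in order of age, 2.91%, 8.90%, 9.69%, 14.3%, 17.6% and 18.8%. The median difference of the 4 members was 0.11, 0.38, 0.76, 1.31, 1.43 and 0.88 on the log2 scale in the same order, while the median over all genes lay between -0.0168 and 0.0121. None of the 4 was called lower at any age.

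**Figure D1:**
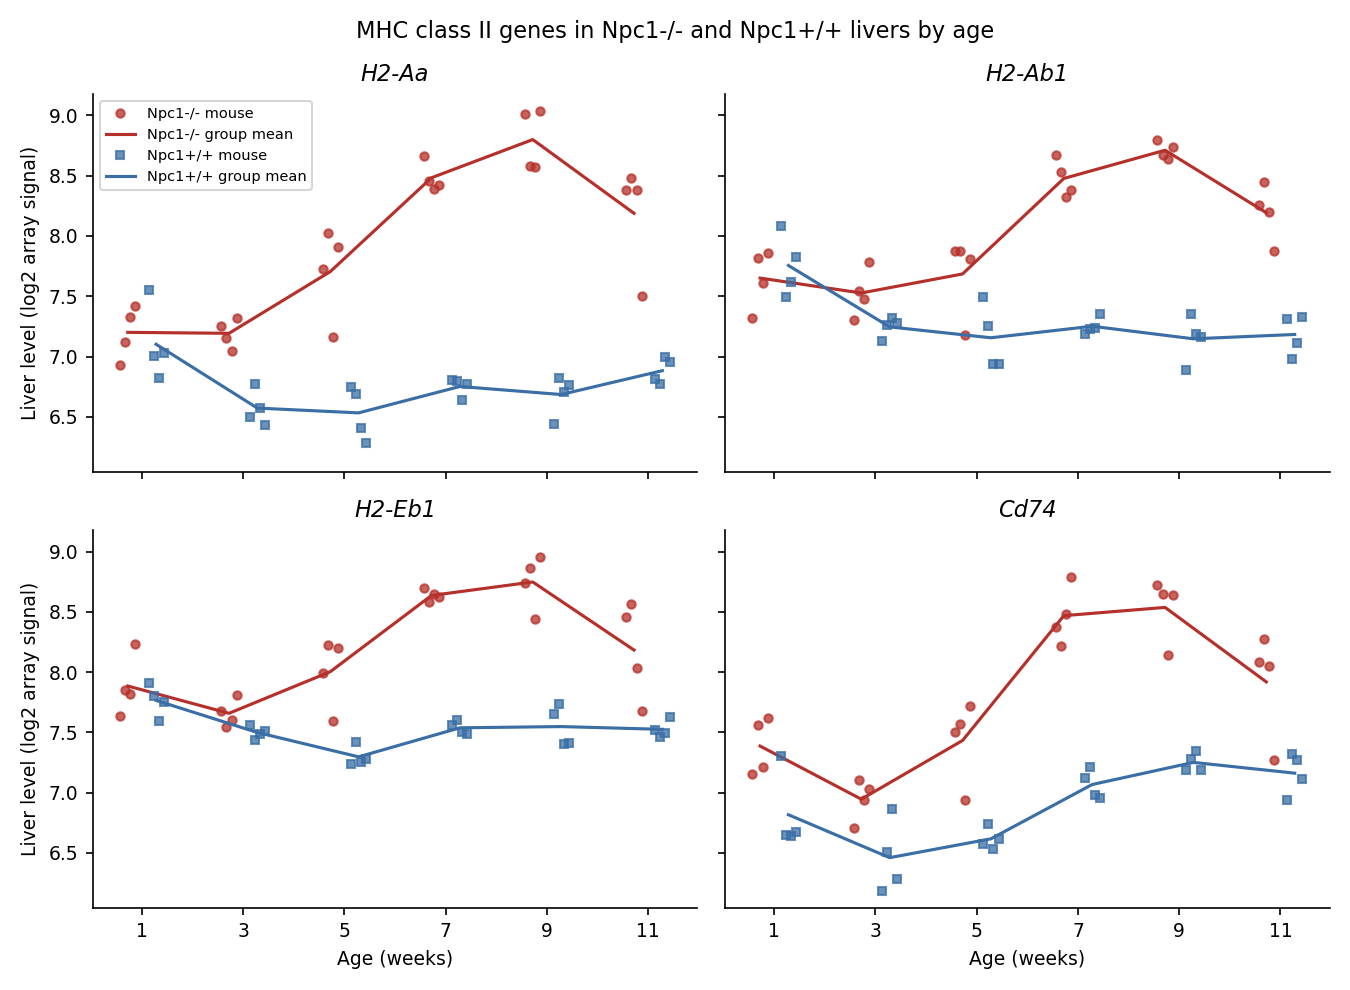
Liver level (log2 array signal) of H2-Aa, H2-Ab1, H2-Eb1 and Cd74 against age in weeks, with 1 point per mouse and lines through the group means, Npc1-/- beside Npc1+/+. The Npc1-/- points of H2-Aa lie above all Npc1+/+ points from 3 weeks on, peak at 9 weeks (mean 8.80, against 6.68) and include 1 low array at 11 weeks (7.50).

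H2-Aa, the alpha chain of the I-A class II molecule, read 6.93, 7.12, 7.33 and 7.42 in Npc1-/- livers at 1 week, against 7.55, 7.01, 6.82 and 7.03 in Npc1+/+ livers. At 3 weeks it read 7.26, 7.15, 7.04 and 7.32 in Npc1-/- livers, against 6.50, 6.78, 6.58 and 6.44 in Npc1+/+ livers. The genotypes overlapped at 1 week and were apart at 3 weeks, by 0.62 ± 0.16 on the log2 scale (SE, adjusted p = 0.00679), and without the Npc1+/+ arrays with pancreas markers the difference was 0.69 (adjusted p = 0.0279). At 5 weeks the values were 7.73, 8.03, 7.16 and 7.91 in Npc1-/- livers, against 6.75, 6.69, 6.41 and 6.28 in Npc1+/+ livers. At 7 weeks they were 8.67, 8.46, 8.39 and 8.42, against 6.80, 6.79, 6.64 and 6.77 in Npc1+/+ livers. Each Npc1-/- liver was above each Npc1+/+ liver of its age, with differences of 1.17 (adjusted p = 7.38e-07) and 1.73 (adjusted p = 1.48e-11). Npc1-/- livers at 9 weeks reached 9.01, 8.58, 8.57 and 9.04, against 6.44, 6.82, 6.71 and 6.76 in Npc1+/+ livers. Npc1-/- livers at 11 weeks had 8.38, 8.48, 8.38 and 7.50, against 6.81, 6.77, 6.99 and 6.95 in Npc1+/+ livers. The genotypes stayed apart at both ages, by 2.12 ± 0.16 (adjusted p = 2.54e-14) and 1.31 ± 0.16 (adjusted p = 1.05e-08), although Npc1-/- array 4 at 11 weeks lay well below the other three.

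H2-Ab1, the beta chain that pairs with H2-Aa, was not called at the 2 youngest ages, with differences of -0.10 at 1 week and 0.28 at 3 weeks (adjusted p = 0.18). At 5 weeks it read 7.87, 7.88, 7.18 and 7.81 in Npc1-/- livers, against 7.50, 7.25, 6.94 and 6.94 in Npc1+/+ livers. These ranges overlapped through Npc1-/- array 3, and the difference was 0.53 ± 0.14 (adjusted p = 0.00727), which did not pass with only these 2 groups in the fit (adjusted p = 0.0812). At 7 weeks it read 8.67, 8.53, 8.33 and 8.38, against 7.18, 7.23, 7.24 and 7.36 in Npc1+/+ livers. At 9 weeks the Npc1-/- values were tight, at 8.79, 8.67, 8.64 and 8.74, against 6.89, 7.35, 7.19 and 7.16. At 11 weeks Npc1-/- livers had 8.26, 8.45, 8.19 and 7.87, against 7.31, 6.98, 7.12 and 7.33 in Npc1+/+ livers. At these 3 ages every Npc1-/- liver was above every Npc1+/+ liver, by 1.23 (adjusted p = 2.39e-09), 1.56 (adjusted p = 2.06e-12) and 1.01 (adjusted p = 9.98e-08).

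H2-Eb1, the beta chain of the I-E class II molecule, had differences of 0.12 at 1 week and 0.16 at 3 weeks, and neither passed the test. At 5 weeks it read 7.99, 8.22, 7.59 and 8.20 in Npc1-/- livers, against 7.23, 7.42, 7.26 and 7.28 in Npc1+/+ livers. At 7 weeks the values were 8.69, 8.58, 8.65 and 8.63, against 7.56, 7.61, 7.50 and 7.48 in Npc1+/+ livers. The genotypes were apart at both ages, by 0.71 ± 0.13 (adjusted p = 0.000108) and 1.10 ± 0.13 (adjusted p = 6.89e-09). Npc1-/- livers at 9 weeks read 8.74, 8.86, 8.44 and 8.95, against 7.65, 7.73, 7.40 and 7.41 in Npc1+/+ livers. At 11 weeks they read 8.45, 8.57, 8.03 and 7.68, against 7.52, 7.46, 7.49 and 7.63. The groups were still apart at 11 weeks, but Npc1-/- array 4 was close to the Npc1+/+ range. The differences were 1.20 (adjusted p = 5.35e-10) at 9 weeks and 0.66 (adjusted p = 6.68e-05) at 11 weeks.

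Cd74, the invariant chain, was the one member called at 1 week, with 7.15, 7.56, 7.21 and 7.62 in Npc1-/- livers, against 7.30, 6.65, 6.64 and 6.67 in Npc1+/+ livers. The ranges overlapped through Npc1+/+ array 1, and the difference of 0.57 ± 0.17 (adjusted p = 0.0372) lost its call without any 1 of 5 arrays (Npc1-/- arrays 2 and 4, Npc1+/+ arrays 2, 3 and 4), with values between 0.49 and 0.52 and adjusted p of 0.102 to 0.146. Npc1+/+ arrays 3 and 4 at 1 week stand apart from arrays 1 and 2 in the order of samples. Without both of them the difference was 0.41 (adjusted p = 0.464). At 3 weeks Cd74 read 6.71, 7.10, 6.94 and 7.03 in Npc1-/- livers, against 6.19, 6.51, 6.87 and 6.28 in Npc1+/+ livers. That difference of 0.49 (adjusted p = 0.0462) was 0.37 (adjusted p = 0.333) without both pancreas-marked arrays, and it lost its call without any 1 of 6 arrays (Npc1-/- arrays 2, 3 and 4, Npc1+/+ arrays 1, 2 and 4), with values between 0.39 and 0.50.

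From 5 weeks the Cd74 call no longer depended on any 1 array. At 5 weeks it read 7.51, 7.57, 6.94 and 7.72 in Npc1-/- livers, against 6.58, 6.74, 6.53 and 6.62 in Npc1+/+ livers. At 7 weeks it read 8.38, 8.22, 8.48 and 8.79, against 7.12, 7.21, 6.98 and 6.96 in Npc1+/+ livers. At 9 weeks it read 8.72, 8.65, 8.14 and 8.64 in Npc1-/- livers, against 7.19, 7.28, 7.34 and 7.19. The genotypes did not overlap at these ages, and the differences were 0.82 (adjusted p = 0.000573), 1.40 (adjusted p = 1.09e-08) and 1.29 (adjusted p = 6.08e-08). At 11 weeks Npc1-/- livers had 8.08, 8.28, 8.05 and 7.27, against 6.94, 7.32, 7.27 and 7.11 in Npc1+/+ livers. Npc1-/- array 4 lay inside the Npc1+/+ range there, and the difference was 0.76 ± 0.17 (adjusted p = 0.000354).

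Averaged over the 6 ages, the genotype difference was 1.17 ± 0.07 for H2-Aa, 0.75 ± 0.06 for H2-Ab1, 0.66 ± 0.05 for H2-Eb1 and 0.89 ± 0.07 for Cd74 (log2, SE), so all 4 were called higher, beside 26.0% of all genes. The difference grew with age for all 4, by 0.16, 0.14, 0.09 and 0.06 log2 units per week in the same order, where 14.9% of all genes had such a positive slope. The slope of Cd74 (adjusted p = 0.0342) lost its call without any 1 of 8 arrays: Npc1-/- arrays 1 and 3 at 1 week and 1, 2 and 3 at 11 weeks, and Npc1+/+ arrays 1 at 1 week, 3 at 3 weeks and 1 at 11 weeks, with slopes of 0.04 to 0.05. It was also lost with quantile normalization (adjusted p = 0.0511), median centring (0.0721) and all 78 arrays in 1 fit (0.0814). A test of whether the genotype difference varied between the ages called all 4, with F of 19.68 for H2-Aa, 19.74 for H2-Ab1, 11.88 for H2-Eb1 and 4.83 for Cd74 (adjusted p = 1.7e-08, 1.64e-08, 6.95e-06 and 0.00846), beside 27.7% of all genes.

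Within Npc1-/- livers the level of all 4 changed with age, as it did for 55.6% of all genes. H2-Aa averaged 7.20 ± 0.22, 7.19 ± 0.12, 7.70 ± 0.38, 8.48 ± 0.13, 8.80 ± 0.26 and 8.19 ± 0.46 from 1 to 11 weeks (SD, n = 4 each). Within Npc1+/+ livers 3 of the 4 changed with age, beside 53.3% of all genes, and H2-Eb1 did not pass (adjusted p = 0.0719), though it did with only the Npc1+/+ groups in the fit (0.00256). H2-Aa averaged 7.10 ± 0.32 in Npc1+/+ livers at 1 week and between 6.53 and 6.88 afterwards, and that change lost its call without array 1 at 1 week (adjusted p = 0.147) or array 4 at 5 weeks (adjusted p = 0.0554). The same call was lost with quantile normalization (adjusted p = 0.0819), median centring (0.0911) and all 78 arrays in 1 fit (0.118). H2-Ab1 was likewise highest in Npc1+/+ livers at 1 week, at 7.76 ± 0.26, against means of 7.15 to 7.25 at later ages. Cd74 had its lowest Npc1+/+ mean at 3 weeks, 6.46 ± 0.30, and its highest at 9 weeks, 7.25 ± 0.08.

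The 4 differences were smaller at 11 than at 9 weeks, a comparison added after the values had been seen. The differences between these were -0.81 ± 0.23 for H2-Aa (adjusted p = 0.0413), -0.55 for H2-Ab1 (adjusted p = 0.12), -0.54 for H2-Eb1 (adjusted p = 0.0995) and -0.53 for Cd74 (adjusted p = 0.262), so 1 of 4 was called, beside 2.23% of all genes called lower. The H2-Aa call was lost without any 1 of 9 of the 16 arrays: Npc1-/- arrays 1 and 4 at 9 weeks and 4 at 11 weeks, and Npc1+/+ arrays 1, 3 and 4 at each of these ages. Its values without 1 array ran from -0.91 to -0.58 and its adjusted p up to 0.123. H2-Ea, the alpha chain that pairs with H2-Eb1, differed by -0.78 (adjusted p = 0.0567). The macrophage gene Lyz2, which encodes lysozyme, differed between the genotype effects at these ages by 0.04, and Cd68, Ctss and Lgmn by 0.31, -0.08 and 0.29, none of them called.

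**Figure D2:**
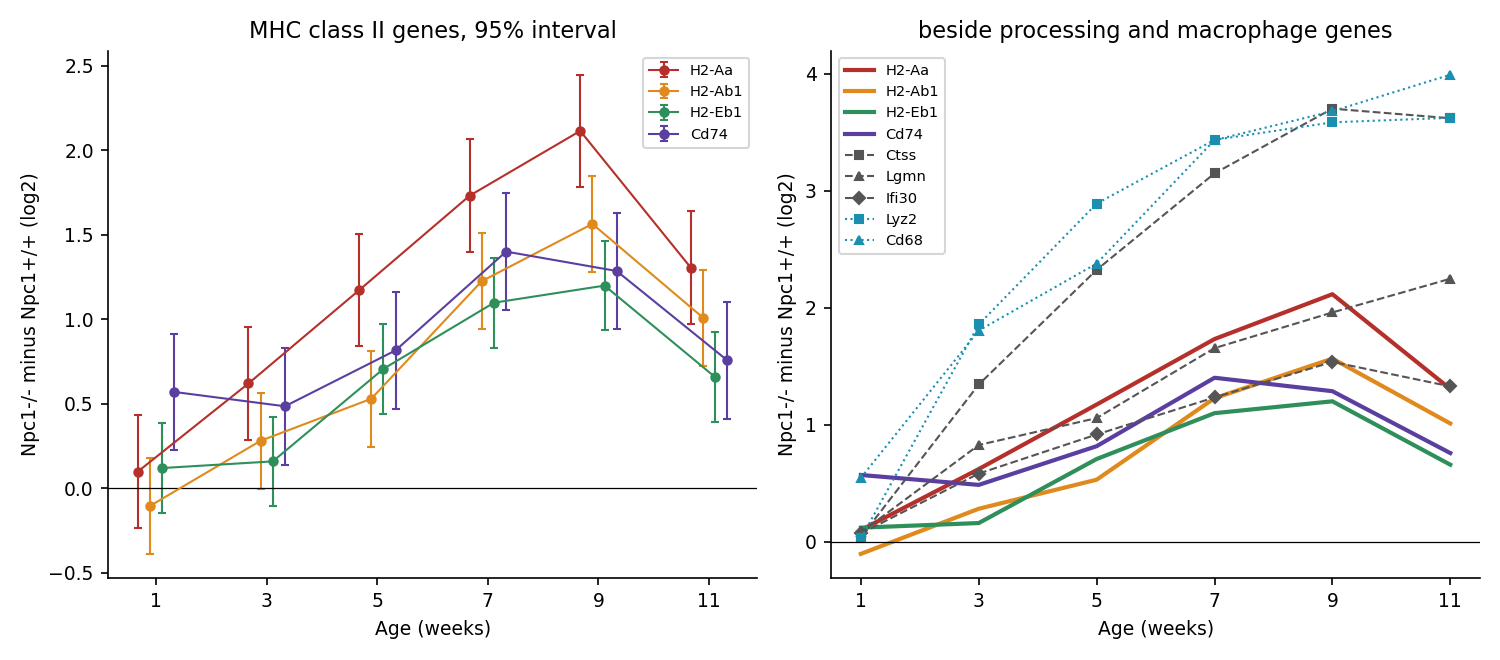
Npc1-/- minus Npc1+/+ level (log2) against age in weeks, on the left for H2-Aa, H2-Ab1, H2-Eb1 and Cd74 with 95% intervals and on the right for the same genes beside the processing genes Ctss, Lgmn and Ifi30 and the macrophage genes Lyz2 and Cd68. The class II lines are highest at 7 or 9 weeks and lower at 11 weeks, while Cd68 and Lgmn are highest at 11 weeks (3.99 and 2.25).

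H2-Ea was the other class II gene that passed the filter, and it was the gene most like the members in these data. At 9 weeks it read 9.67, 9.42, 9.23 and 9.69 in Npc1-/- livers, against 7.63, 8.12, 7.69 and 7.85 in Npc1+/+ livers. The groups did not overlap and the difference was 1.68, with called differences of 0.92, 1.41 and 0.90 at 5, 7 and 11 weeks, while the values of 0.10 at 1 week and 0.42 at 3 weeks did not pass. H2-Oa and H2-Ob, the chains of the H2-DM inhibitor H2-DO, and H2-Eb2 were below the filter.

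The genes that prepare class II molecules and their peptides also rose. Of 7 genes of class II antigen processing, 2, 6, 6, 6, 7 and 7 were higher in Npc1-/- livers from 1 to 11 weeks. At 9 weeks their median difference was 1.54, against -0.0052 over all genes. Ctss, cathepsin S, which removes the invariant chain, read 12.24, 11.80, 11.87 and 12.07 in Npc1-/- livers at 9 weeks, against 8.01, 8.50, 8.40 and 8.27 in Npc1+/+ livers. The genotypes were far apart and the difference was 3.70. At the same age Lgmn, the asparaginyl endopeptidase, rose by 1.96, Ctsd, cathepsin D, by 1.66, and Ifi30, the lysosomal thiol reductase, by 1.54. Ctsb and Ctsl, cathepsins B and L, rose by 1.15 and 0.97, and Marchf1, a ubiquitin ligase that removes class II molecules from the cell surface, by 0.41. At 1 week the called genes were Ctsl (0.41) and Ctsd (0.42). Without the pancreas- and muscle-marked arrays the counts were 2 at 1 week and 5 at 3 weeks, where Ctsl (0.28) lost its call (adjusted p = 0.0902).

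Of the 7 factors that hold Ciita at promoters such as those shown above, 1 was higher and 1 lower at 9 weeks, with a median of -0.15. The NF-Y subunit Nfya rose by 0.62 and the RFX subunit Rfxap fell by 0.28 (15.5% of all genes were called lower at that age), while Rfx5, which contacts the X box, differed by -0.20 and did not pass. Rfx5 was called at 3 weeks alone, at 0.46, and not without the pancreas- and muscle-marked arrays (0.41, adjusted p = 0.0871). Creb1, which also binds class II promoters, had differences between -0.14 and 0.16 at the 6 ages, none called.

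Ciita read 5.16, 5.36, 5.28 and 5.46 in Npc1-/- livers at 9 weeks, against 5.05, 5.22, 4.87 and 5.28 in Npc1+/+ livers. Its values overlapped there, and across the age series they ran from 4.81 to 5.50, below the median of all array values throughout. The highest Ciita group mean was that of Npc1-/- livers at 7 weeks, 5.40 ± 0.07, against 5.26 ± 0.12 in Npc1+/+ livers. H2-DMa read 5.66, 5.33, 5.51 and 5.57 in Npc1-/- livers at 9 weeks, against 5.41, 5.09, 4.98 and 5.26 in Npc1+/+ livers. At 7 weeks its genotypes did not overlap, with 5.31, 5.31, 5.42 and 5.47 in Npc1-/- livers, against 5.12, 5.29, 5.17 and 5.06. Both genes were too dim for the filter in this series, and their differences were not tested.

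**Figure D3:**
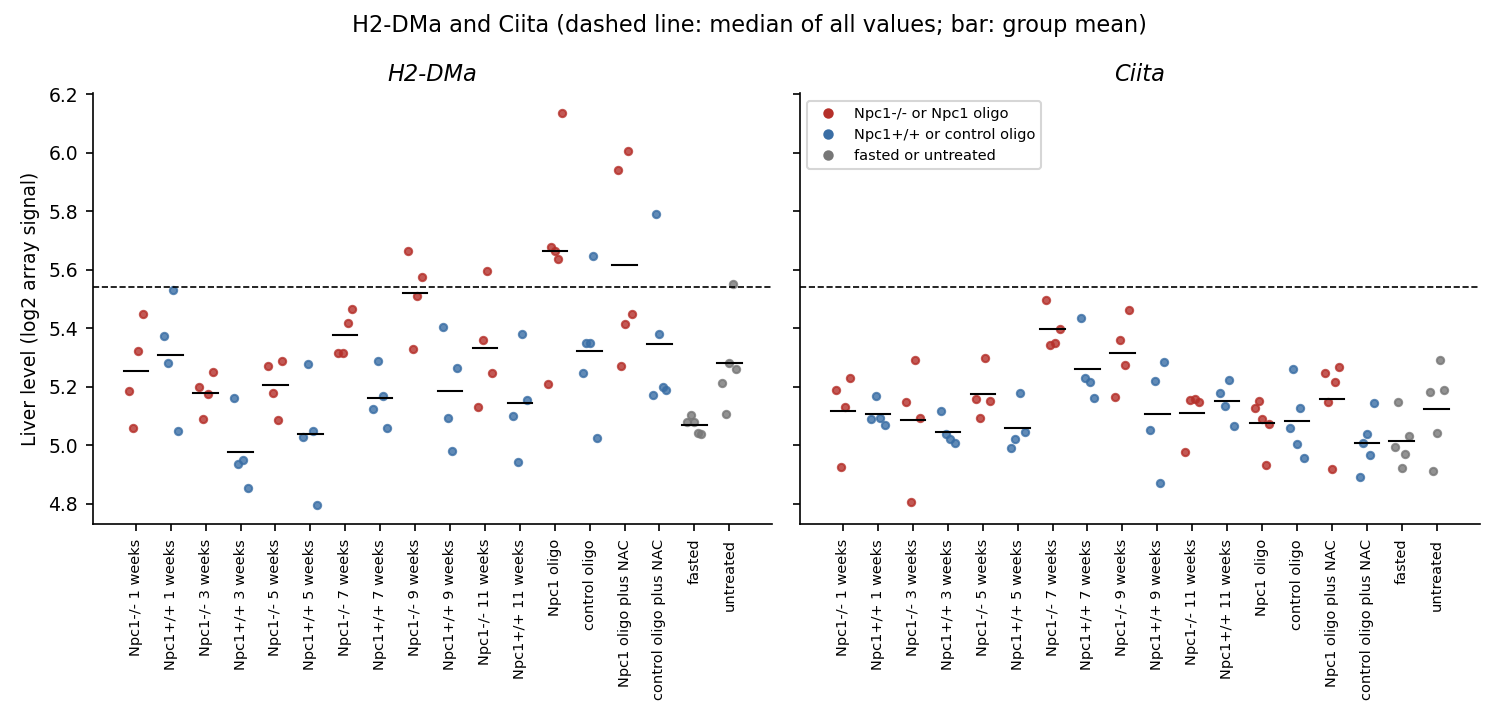
Liver level (log2 array signal) of H2-DMa and Ciita in all 18 groups, with 1 point per mouse, a bar at each group mean and a dashed line at the median of all values (5.54). Every Ciita point lies below the line, while H2-DMa rises above it in 3 arrays of the age series and 9 arrays of the 12-week set.

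Among genes of interferon gamma signalling, 0, 4, 4, 4, 4 and 5 of 7 tested were higher in Npc1-/- livers from 1 to 11 weeks. At 9 weeks the transcription factor Irf8 rose by 1.18, the receptor chains Ifngr1 and Ifngr2 by 0.96 and 0.77 and the kinase Jak2 by 0.38, while the feedback inhibitor Socs1 fell by 0.41. Irf1, an interferon-induced factor that acts on a Ciita promoter, was higher at 3 weeks (0.81) and differed by at most 0.24 from 5 weeks on, not called. Without the pancreas- and muscle-marked arrays 3 of the 7 were higher at 3 weeks, Irf1 among them (0.82), and Ifngr1 (0.46) was not. Ifng, the cytokine, was below the filter. For MHC class I presentation, which serves CD8+ T cells, 5 of 8 genes tested were higher at 9 weeks, with a median of 0.30. The called genes were Nlrc5 (0.48), the class I counterpart of Ciita, the proteasome subunit Psmb9 (0.42), the peptide transporter Tap1 (0.36), B2m (0.35) and Tapbp (0.25). At 11 weeks 1 was higher, Tapbp (0.33), beside 18.8% of all genes, and 2 were lower, Psmb9 and Tap2 (-0.31 each), beside 20.5%.

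Of the costimulation genes, Cd83, a surface marker of activated antigen-presenting cells, rose at every age, by 0.48 at 1 week and by 1.55 at 11 weeks. At 1 week its call was lost without the pancreas- and muscle-marked arrays (0.52, adjusted p = 0.0567). Cd86, a ligand of CD28, fell by 0.43 at 9 weeks and was not called at the other ages. Cd40 was not called at any age, and Cd80 was below the filter.

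Markers of the cells that can carry class II molecules were set beside these genes. Of 6 macrophage genes, 6 were higher in Npc1-/- livers at 9 weeks and at 11 weeks, and their mean level was 7.53 to 8.97 over the 24 Npc1-/- arrays, against 6.64 to 7.91 over the 24 Npc1+/+ arrays. Lyz2 read 12.59, 12.14, 12.04 and 12.41 in Npc1-/- livers at 9 weeks, against 8.35, 8.92, 8.88 and 8.70 in Npc1+/+ livers, a difference of 3.58. All 5 genes of lipid-laden macrophages were higher from 3 weeks on, among them Gpnmb by 6.72 and Itgax, a chain of an integrin found on macrophages and dendritic cells, by 4.25 at 9 weeks. Their mean level was 6.27 to 10.07 in Npc1-/- livers, against 5.79 to 6.24 in Npc1+/+ livers. Among all arrays Gpnmb, Itgax and Mmp12 of this list fell as low as 4.85, 4.67 and 5.07, below the median of all values (5.54). Whether they would pass the filter without the Npc1-/- arrays was not tested. Of 5 genes of resident Kupffer cells, 4 were lower at 9 weeks: Cd163 by -2.98, Clec4f by -1.89, Timd4 by -1.10 and Vsig4 by -0.50. Of 5 genes of sinusoidal endothelium, which lines the liver's capillaries, 4 were lower at 9 weeks: Kdr by -0.84, Cdh5 by -0.75, Stab2 by -0.49 and Pecam1 by -0.40. At 11 weeks 3 of them were lower, beside 20.5% of all genes, and Lyve1 was higher, by 0.71. The part of these macrophage and endothelial changes in the class II differences was not tested, and in bulk liver more cells of a type and more RNA per cell cannot be told apart.

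No B cell marker was called. Of 6 B cell genes measured, 4 (Cd79a, Ms4a1, Cr2 and Fcer2a) were below the filter and the other 2, Cd79b and Pax5, were not called at any age. Cd79b, a chain of the B cell receptor complex, read 6.06, 6.05, 6.02 and 6.12 in Npc1-/- livers at 9 weeks, against 6.03, 5.74, 5.74 and 5.94 in Npc1+/+ livers. The mean of the B cell list was 4.30 to 5.05 in Npc1-/- livers, against 4.22 to 5.20 in Npc1+/+ livers. Of 5 T cell genes, 2 were tested (Cd3e and Cd8a) and neither was called at any age. Of 8 dendritic cell genes, 4 were tested, and Clec9a was called, by 0.90 at 9 weeks. At that age it read 6.49, 6.27, 6.12 and 6.21 in Npc1-/- livers, against 5.55, 5.57, 5.34 and 5.03 in Npc1+/+ livers. Among all arrays Clec9a fell as low as 4.76, below the median of all values. Whether it would pass the filter without the Npc1-/- arrays was not tested. Zbtb46, Batf3 and Ccr7 were not called at any age, and Flt3, Xcr1, Cd209a and Siglech were below the filter.

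In the 12-week set Npc1 was lowered in adult mice, with and without an antioxidant. H2-Aa, H2-Ab1, H2-Eb1 and Cd74 were above the median of all values on all 30 arrays, and these 4 are counted here. H2-DMa was above it on 9 arrays, of which 6 were from the Npc1 oligo groups. The other 3 would not have brought it past the filter of 4 arrays, so its values are given as a description with no test. With the Npc1 oligo alone, 0 of the 4 was called against the control oligo, beside 14.7% of 11900 genes called higher. At an unadjusted p under 0.05, 1 of the 4 was higher, H2-Eb1, beside 34.8% of all genes in either direction. With NAC given to both groups, 3 of the 4 were higher with the Npc1 oligo (H2-Aa, H2-Eb1 and Cd74), beside 11.0% of all genes.

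H2-Aa read 8.50, 8.46, 8.07, 8.51 and 9.15 with the Npc1 oligo, against 8.46, 8.14, 8.20, 8.70 and 7.86 with the control oligo. The groups overlapped, and the difference was 0.27 (95% interval -0.17 to 0.71, adjusted p = 0.393). H2-Ab1 read 8.59, 8.58, 8.49, 8.58 and 9.26 with the Npc1 oligo, against 8.61, 8.35, 8.51, 8.83 and 8.31 with the control oligo. Its difference was 0.18 (-0.25 to 0.60, adjusted p = 0.573), with 1 Npc1 oligo array well above the other four. H2-Eb1 read 8.61, 8.97, 8.59, 8.84 and 9.24 with the Npc1 oligo, against 8.53, 8.43, 8.30, 8.79 and 8.24 with the control oligo. Cd74 read 8.07, 8.24, 8.02, 8.25 and 8.87, against 7.95, 7.70, 7.77, 8.41 and 7.67 with the control oligo. Both overlapped, with differences of 0.39 (0.04 to 0.75, adjusted p = 0.105) for H2-Eb1 and 0.39 (-0.05 to 0.83, adjusted p = 0.202) for Cd74. H2-DMa read 5.21, 5.68, 5.66, 5.64 and 6.13 with the Npc1 oligo, against 5.25, 5.35, 5.35, 5.65 and 5.02 with the control oligo. These overlapped, with a difference of 0.34.

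With NAC, H2-Aa read 8.83, 8.91, 7.78, 8.93 and 8.90 with the Npc1 oligo, against 7.94, 8.22, 7.39, 7.36 and 7.61 with the control oligo. H2-Eb1 read 8.85, 8.80, 8.20, 9.28 and 9.10 with the Npc1 oligo, against 8.15, 8.53, 8.00, 7.93 and 8.05 with the control oligo. Npc1 oligo plus NAC array 3 lay inside the control oligo plus NAC range for both genes, and the other four lay above it. The differences were 0.97 ± 0.22 (adjusted p = 0.00103) for H2-Aa and 0.71 ± 0.17 (adjusted p = 0.00244) for H2-Eb1. Cd74 read 8.57, 8.48, 7.61, 8.73 and 8.39 with the Npc1 oligo plus NAC, against 7.71, 8.17, 7.40, 7.33 and 8.01 with the control oligo plus NAC. Its difference of 0.63 ± 0.22 (adjusted p = 0.0295) lost its call without any 1 of 7 arrays (Npc1 oligo plus NAC arrays 1, 2, 4 and 5, control oligo plus NAC arrays 1, 3 and 4), with values of 0.53 to 0.63 and adjusted p up to 0.0915, and with an intensity trend and robust prior (adjusted p = 0.052). H2-Ab1 read 8.86, 8.34, 7.82, 8.97 and 8.91, against 8.35, 8.54, 7.94, 7.66 and 8.14 with the control oligo plus NAC, a difference of 0.45 (adjusted p = 0.111) that passed without Npc1 oligo plus NAC array 3 (0.64, adjusted p = 0.0141), with array weights (0.59, adjusted p = 0.0311) and with all 78 arrays in 1 fit (adjusted p = 0.0465). The difference of H2-DMa was 0.27.

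Array 3 of the Npc1 oligo plus NAC group was the lowest of its group in all 4 of H2-Aa, H2-Ab1, H2-Eb1 and Cd74. It was low in macrophage genes as well, at a mean of 7.69, against 8.20 to 8.54 in the other four, and in lipid-laden macrophage genes, at 6.78, against 8.79 to 9.06. Npc1-/- array 4 at 11 weeks, which was lowest in the same 4 genes, was also the lowest of its group over lipid-laden macrophage genes, at 9.82, against 9.96 to 10.02 in the other three. Over macrophage genes it was the highest, at 8.97, against 8.70 to 8.89. Over hepatocyte markers both arrays were the lowest of their groups. Npc1 oligo plus NAC array 3 was at 13.06, against 13.25 to 13.32, and Npc1-/- array 4 at 13.17, against 13.28 to 13.40. Over Kupffer cell genes both lay inside the range of the others, at 8.07 and 6.22. The cause of these low values was not tested.

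The effect of NAC itself was called for 0 of the 4 members with the Npc1 oligo, beside 7.15% of all genes in either direction, and for 0 with the control oligo, beside 8.50%. At an unadjusted p under 0.05 the count was 0 with the Npc1 oligo and 1 with the control oligo, H2-Aa, with a NAC difference of -0.57 (adjusted p = 0.0896), beside 20.7% and 26.3% of all genes. The interaction of NAC and the Npc1 oligo was called for 0 of the 4, beside 4.83% of all genes. H2-Aa had an interaction of 0.70 ± 0.31 (adjusted p = 0.18, unadjusted p = 0.0287, where 20.9% of all genes were under 0.05), which reached 0.92 (adjusted p = 0.0455) without Npc1 oligo plus NAC array 3. The larger difference under NAC was therefore not shown to differ from that without NAC. Fasting was called for 0 of the 4, beside 0.529% of all genes, with 0 at an unadjusted p under 0.05, beside 8.87%. H2-Aa read 7.57, 7.60, 7.48, 7.30 and 7.46 in fasted livers, against 7.30, 7.01, 7.64, 8.22 and 7.60 in untreated livers, and these overlapped.

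**Figure D4:**
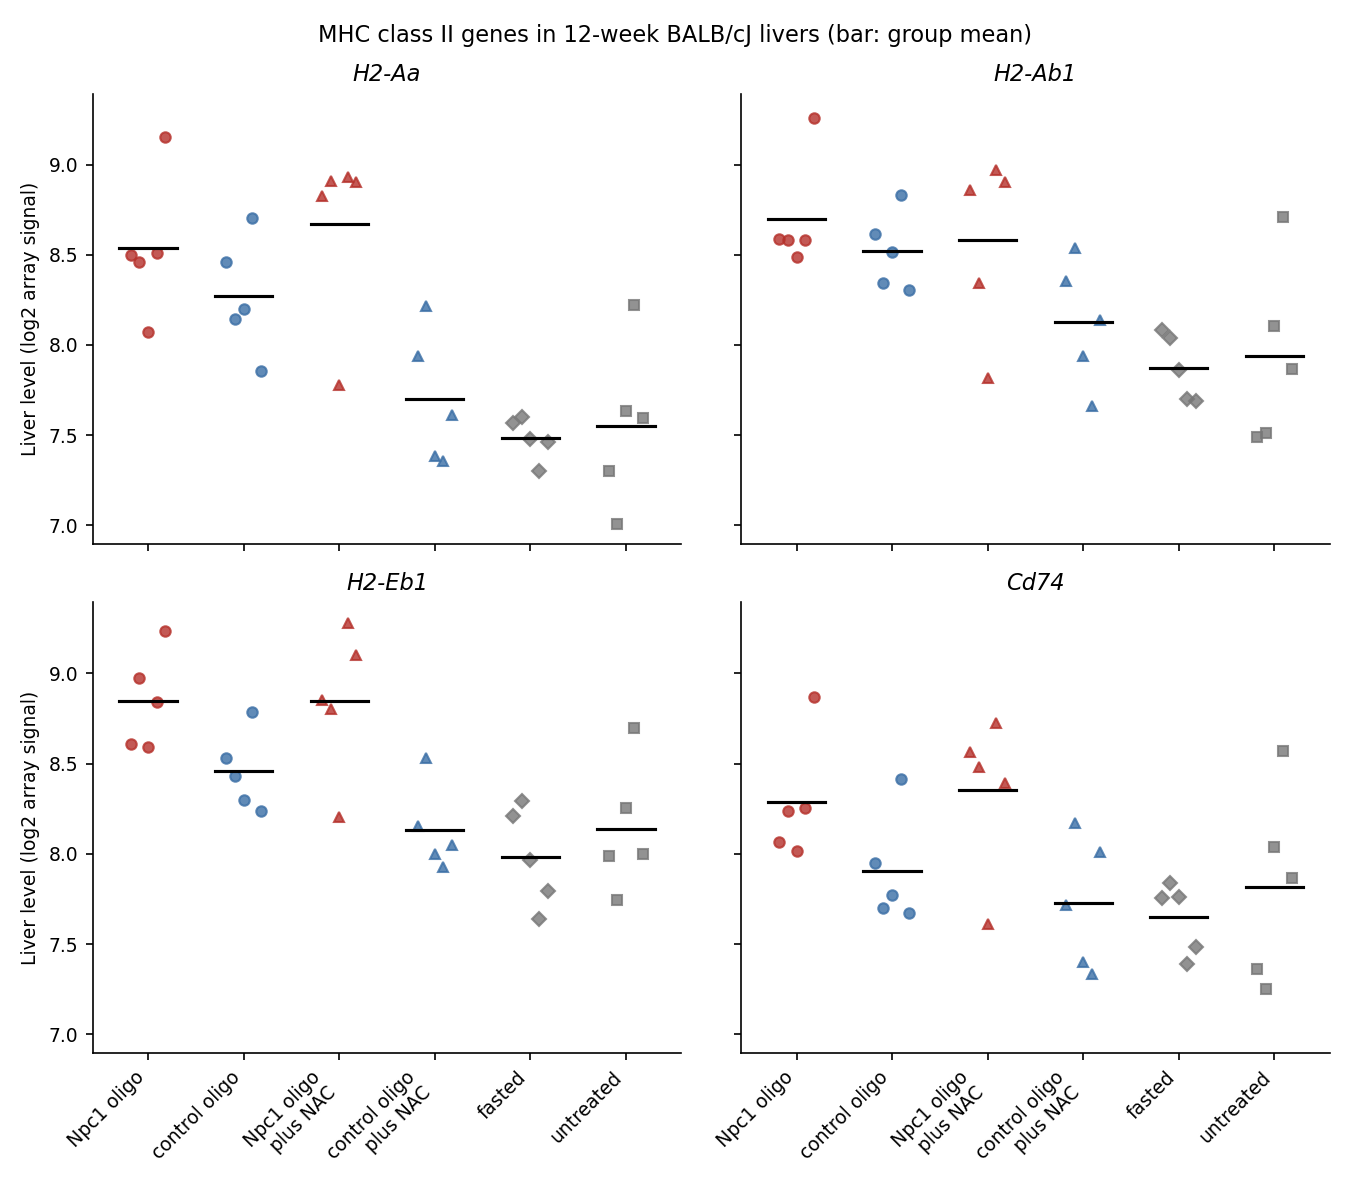
Liver level (log2 array signal) of H2-Aa, H2-Ab1, H2-Eb1 and Cd74 in the 6 groups of 12-week BALB/cJ mice, with 1 point per mouse and a bar at each group mean. Npc1 oligo and control oligo points overlap for all 4 genes, and the fasted and untreated groups have the lowest H2-Aa means (7.48 and 7.55).

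Against untreated mice, the control oligo alone had 2 of the 4 members higher, H2-Aa and H2-Ab1, beside 5.05% of all genes called higher. H2-Aa averaged 8.27 ± 0.32 with the control oligo and 7.55 ± 0.45 in untreated livers (SD, n = 5 each), a difference of 0.72 (adjusted p = 0.0137). The ranges overlapped through untreated array 4, at 8.22, and without untreated array 2 the difference was 0.58 (adjusted p = 0.0535). H2-Ab1 averaged 8.52 ± 0.21 with the control oligo and 7.94 ± 0.50 in untreated livers, a difference of 0.58 (adjusted p = 0.0357). It lost its call without any 1 of 6 arrays (control oligo arrays 1, 3 and 4, untreated arrays 1, 2 and 5), with values of 0.47 to 0.59 and adjusted p up to 0.108. H2-Eb1 (0.32) and Cd74 (0.08) did not pass. Macrophage genes moved beside them, with 3 of 5 tested higher with the control oligo, namely Cd68 (0.73), Lyz2 (0.62) and Adgre1 (0.61). So did 3 of 5 Kupffer cell genes, Vsig4 (0.57), Timd4 (0.37) and Clec4f (0.34), and 3 of 7 processing genes, Ctss (0.65), Lgmn (0.37) and Ctsl (0.25). Of lipid-laden macrophage genes 1 of 5 was higher, Mmp12 (1.11), and of endothelial genes 1 of 5, Lyve1 (0.49). The part of these changes in the class II differences was not tested. The control oligo arrays serve in this comparison and in that of the Npc1 oligo.

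Genes of class II processing and of lipid-laden macrophages rose with the Npc1 oligo in both comparisons. Without NAC, all 7 genes of class II antigen processing were higher with the Npc1 oligo, with Ctss at 11.17, 10.58, 10.27, 10.92 and 11.21, against 9.46, 9.17, 9.40, 9.57 and 9.13 with the control oligo, a difference of 1.48. Ifi30 rose by 1.03, Lgmn by 0.93 and Ctsd by 0.89. With NAC 6 of the 7 were higher, and Marchf1 (0.03) did not pass. All 5 genes of lipid-laden macrophages were higher in both comparisons, Mmp12, a macrophage elastase, by 3.82 and 4.02, and Gpnmb by 3.07 and 3.37. Whether each would pass the filter without the Npc1 oligo arrays was not tested. H2-Ea differed by 0.20 without NAC, not called, and rose by 0.93 with NAC. Of 5 macrophage genes tested, 3 were higher without NAC, Lyz2 (1.45), Cd68 (1.38) and Csf1r (0.44), and 2 with NAC, Lyz2 (1.33) and Cd68 (1.17). Of 5 Kupffer cell genes, Vsig4 was higher in both comparisons, by 0.99 and 0.58, while Timd4 (-0.69) and Marco (-0.61) were lower with NAC. Lyve1 of the endothelial list was higher in both, by 0.70 and 0.50, and Cdh5 was lower with NAC, by -0.21. In that comparison with NAC, 14.7% of all genes were called lower.

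The genotype difference at 11 weeks was set against the oligo difference without NAC at 12 weeks in 1 fit of all 78 arrays. It was larger for 2 of the 4 members, beside 11.7% of 12748 genes. H2-Aa differed by 1.31 between genotypes and by 0.27 between oligos, and the difference between these was 1.04 ± 0.28 (adjusted p = 0.00286). H2-Ab1 differed by 1.01 and by 0.18, and the difference between these was 0.83 ± 0.26 (adjusted p = 0.00981). H2-Eb1 (0.27) and Cd74 (0.37) did not pass. The result rests on the oligo pair without NAC. With NAC the oligo difference was 0.97 for H2-Aa and 0.45 for H2-Ab1, and the genotype difference was not tested against it. The sets differ in age, in colony, in part in how livers were preserved and in how Npc1 was lost. The reference group of the oligo effect was also itself given an oligo. The parts of these in the difference cannot be told apart. The levels these differences start from are given for H2-Aa, with no test: it averaged 6.88 ± 0.11 in Npc1+/+ livers at 11 weeks, 7.55 ± 0.45 in untreated and 8.27 ± 0.32 in control oligo livers at 12 weeks.

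Ordered by mean over the 18 groups, H2-Aa was highest in Npc1-/- livers at 9 weeks (8.80 ± 0.26), followed by Npc1 oligo plus NAC (8.67 ± 0.50), Npc1 oligo (8.54 ± 0.39), Npc1-/- at 7 weeks (8.48 ± 0.13), control oligo (8.27 ± 0.32) and Npc1-/- at 11 weeks (8.19 ± 0.46). Npc1-/- livers at 5 weeks (7.70 ± 0.38), control oligo plus NAC (7.70 ± 0.37), untreated (7.55 ± 0.45) and fasted livers (7.48 ± 0.12) came next, then Npc1-/- livers at 1 week (7.20 ± 0.22) and 3 weeks (7.19 ± 0.12). The 6 Npc1+/+ groups were the lowest, between 7.10 ± 0.32 at 1 week and 6.53 ± 0.22 at 5 weeks. The ranges of all 17 neighbouring pairs in this order overlapped. The same held for each of the other 5 measured members, except 1 pair of H2-Eb1 (Npc1+/+ livers at 3 and 5 weeks).

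The 4 expressed members varied together. Over the 18 group means the 6 pairs of these genes had Pearson's r of 0.90 to 0.98, as a description of groups that share 2 sets of arrays. After the group mean had been taken off each array, r over the 78 arrays was still 0.79 to 0.86, at 0.56 to 0.77 in the age series and 0.89 to 0.92 in the 12-week set. Mice of 1 group thus had a high or a low level of H2-Aa, H2-Ab1, H2-Eb1 and Cd74 together, and the scale of the arrays is shared by all of them. Untreated array 4 was the highest of its group in all 4, for example at 8.22 for H2-Aa and 8.57 for Cd74, against 7.01 to 7.64 and 7.25 to 8.04 in the other four.

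**Figure D5:**
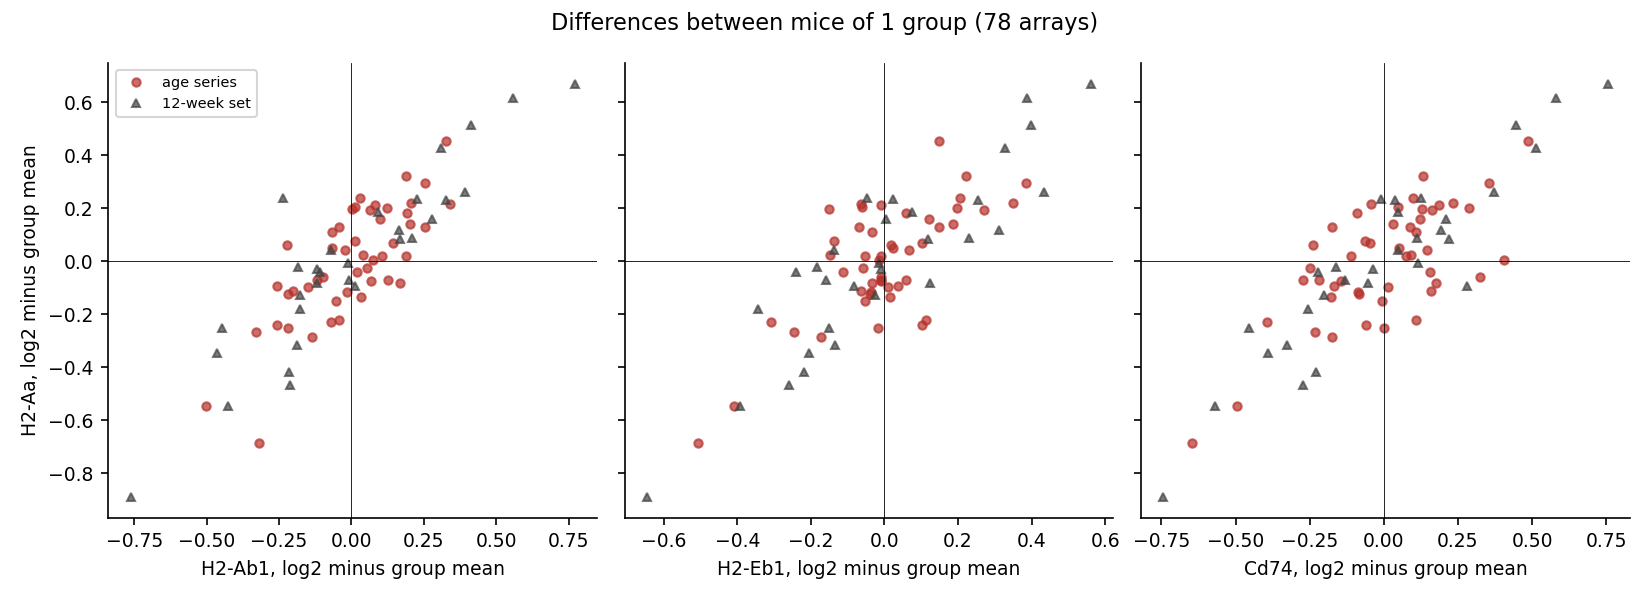
H2-Aa on each of the 78 arrays minus its group mean (log2, vertical axis) against the same quantity for H2-Ab1, H2-Eb1 and Cd74 (horizontal axes), with circles for the age series and triangles for the 12-week set. The points run along the diagonal in every panel, and the lowest point is array 3 of the Npc1 oligo plus NAC group.

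The genes whose pattern was most like the mean of these 4 were named by Pearson's r. Over the 18 group means they were H2-Ea (r = 0.979), the antiviral helicase gene Ddx60 (0.932), the Fc receptor gene Fcgr4 (0.916), the lipid carrier gene Fabp7 (0.906) and Samhd1, a nucleotide hydrolase gene (0.899). Over the 78 arrays with group means taken off they were H2-Ea (0.908), the chemokine gene Ccl5 (0.748), the signalling adaptor gene Tyrobp (0.721), the leukocyte surface gene Cd52 (0.709) and the integrin gene Itgb2 (0.692). H2-Ea led both lists, and no other gene was in both.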

How the data were processed

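Per the labels' protocols, total RNA of each liver was purified with TRIzol and RNeasy columns and hybridised to Affymetrix arrays, and livers of the age series were frozen while those of the 12-week set were frozen or kept in RNAlater (which is not given per mouse). The deposited values are the authors' log2 signals per probe set (1.79 to 14.6, array medians 5.35 to 5.65). The submitters' processing notes name RMA and Partek 6.5 without role or order. The values were used without further normalization.

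Of 35556 probe sets, 21789 carried 1 gene symbol in the platform annotation, 1621 several and 12146 were not listed. Genes with several probe sets were represented by the one with the highest mean over 78 arrays. Genes above the median of all values, 5.54, on 4 or more arrays were tested: 12638 over the age series, 11900 over the 12-week set and 12748 over all arrays together. limma 3.58.1 in R 4.3.3 fitted 1 mean per group with lmFit and eBayes. Tests were two-sided, with Benjamini-Hochberg adjusted p under 0.05 over all genes of the fit as the threshold for a call. The fits were tested on simulated data. The comparison of 11 with 9 weeks was added after the values were seen. The number of arrays limits the precision, and the labels call the 4 or 5 mice of a group biological replicates. No 2 arrays held identical values (correlations 0.949 to 0.994).

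The members and gene lists were chosen with earlier results of these data known. Named genes are the members, Npc1, up to 4 called genes per list with the largest change together with genes that define a list, and the 5 genes most like the expressed members. Further list genes were named after their values were seen, to account for a count. Alternatives changed the low-value filter, scaling, probe set, variance prior, array weights and which arrays shared a fit, blocked on replicate number, or left out each array in turn. Replicate numbers were not used as pairs, since correlations of same-numbered arrays ran from -0.24 to 0.28.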

Additional observations from a re-analysis of the deposited data

Results flagged for a closer look

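In 8 of 108 combinations of member and group, 1 array stood far from the rest of its group by Dixon's test, where chance gives about 1 in 20. H2-Aa was low on Npc1-/- array 4 at 11 weeks (7.50, others 8.38 to 8.48) and on Npc1 oligo plus NAC array 3 (7.78, others 8.83 to 8.93). H2-Ab1 was low on Npc1-/- array 3 at 5 weeks (7.18, others 7.81 to 7.88) and high on Npc1 oligo array 5 (9.26, others 8.49 to 8.59). Cd74 was low on Npc1-/- array 3 at 9 weeks (8.14, others 8.64 to 8.72). It was high on Npc1+/+ array 1 at 1 week (7.30, others 6.64 to 6.67) and on Npc1 oligo array 5 (8.87, others 8.02 to 8.25). Ciita was low on Npc1-/- array 1 at 11 weeks (4.98, others 5.15 to 5.16).

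Differences between groups in the size of an effect passed a test of the difference itself in 7 cases. The genotype effect varied between ages for H2-Aa (F = 19.68), H2-Ab1 (19.74), H2-Eb1 (11.88) and Cd74 (4.83). The genotype effect at 11 weeks exceeded the oligo effect without NAC by 1.04 for H2-Aa and by 0.83 for H2-Ab1 on the log2 scale. The genotype effect of H2-Aa at 11 weeks minus that at 9 weeks was -0.81, in the comparison added after the values were seen.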

How the results depend on the processing

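The 4 calls at 7, 9 and 11 weeks and for the average over ages held under every alternative run and without any 1 array. At 5 weeks the count was 3 in place of 4 with only the compared groups (H2-Ab1 lost), for the slope 3 in place of 4 and for the age effect in Npc1+/+ livers 2 in place of 3 with quantile normalization, median centring or all 78 arrays. Of 2524 recomputed values of single members, 2444 kept their call and direction, 68 lost and 12 gained a call, and 0 reversed. The count at 1 week was 0 in place of 1 without a filter, with each array centred on its median, with only the compared groups in the fit, with all 78 arrays in 1 fit and without both 1-week Npc1+/+ arrays 3 and 4, and 0 to 1 without 1 array. The count at 3 weeks was 1 in place of 2 without a filter, with quantile normalization, median centring or all 78 arrays, and without the pancreas-marked arrays, also when the muscle-marked array was left out with them (chosen after seeing the data), and 1 to 2 without 1 array. For the Npc1 oligo it was 1 in place of 0 with only the compared groups (H2-Eb1). It was also 1 with quantile normalization or all 78 arrays, and 0 to 1 without 1 array, in each case through H2-DMa. The Npc1 oligo arrays themselves carried H2-DMa past the filter. None of H2-Aa, H2-Ab1, H2-Eb1 and Cd74 gained a call without 1 array in this comparison. With NAC the count was 2 with an intensity trend and robust prior, 4 with array weights or all 78 arrays, and 2 to 4 without 1 array, in place of 3. For NAC with the control oligo it was 1 with quantile normalization (H2-Aa -0.64, adjusted p = 0.0439). The interaction count was 0 to 1 without 1 array. For the control oligo against untreated livers it was 1 in place of 2 with an intensity trend and robust prior, and 0 to 2 without 1 array. For the added comparison of 11 with 9 weeks it was 0 in place of 1 without a filter, with all 78 arrays, with array weights or with the compared groups alone, and 0 to 2 without 1 array. The cause of these changes was not tested. With the replicate number as a block, the count of members called was the one reported in each of the 20 comparisons, for example 4 at 9 weeks. Median centring moved the median of all genes to -0.105 at 11 weeks and to -0.126 for the 11-week effect minus the oligo effect. Signals near or below the median of all values limit what can be said of Ciita and H2-DMa.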
